A study of Rattus norvegicus with 6 samples.

Results

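Oxidative phosphorylation is the last stage of respiration in mitochondria, and the nuclear genes that encode its machinery were followed here in the livers of adult rats whose fathers had been made hyperglycaemic or had received vehicle. Members were all genes whose symbol in the array annotation begins with Ndufa, Ndufb, Ndufc, Ndufs, Ndufv, Sdh, Uqcr, Cox4, Cox5, Cox6, Cox7, Cox8 or Atp5, which gave 116 of 22093 measured genes: 54 of complex I, 8 of complex II, 12 of complex III, 18 of complex IV and 24 of complex V. By their names they comprised 70 genes of subunits, 11 assembly factors, 6 tissue-restricted isoforms, the ATP synthase inhibitor Atp5if1, the supercomplex factor Cox7a2l and 27 gene copies or pseudogenes, whose probe sets can share hybridisation with the parent gene.

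The rats were Sprague Dawley. In the STZ-O group the fathers had received intraperitoneal streptozotocin, a toxin of insulin-producing beta cells that raises blood glucose, and in the CB-O group they had received the citrate buffer vehicle; all were mated with normal females. The offspring of both groups ate chow and were killed fed, 1 rat was taken per litter, sex was not distinguished in the labels, and the livers of 3 offspring per group were each hybridised to 1 rat transcriptome array. The files hold log2 levels, and every difference below subtracts the CB-O mean from the STZ-O mean on that scale.

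In the respiratory chain, complex I (NADH dehydrogenase) and complex II (succinate dehydrogenase, which is also an enzyme of the citric acid cycle) pass electrons to ubiquinone. Complex III passes them on to cytochrome c and complex IV to oxygen, while complexes I, III and IV pump protons out of the matrix. Complex V, the ATP synthase, lets the protons back in and makes ATP. Liver depends on this chain for gluconeogenesis and urea synthesis and to reoxidise the cofactors that fatty acid oxidation reduces. Complex II is encoded wholly in the nucleus, and the other complexes also contain subunits encoded by mitochondrial DNA, which were not analysed here.

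Some promoters of these genes shared letters with binding sites of regulators of mitochondrial biogenesis. In RefSeq (GRCr8), 88 of the 116 members had a promoter window, among them 62 of the 70 subunit genes. Over the 250 bases before the start, on both strands, the NRF1 motif (10 bases) occurred in 10 of 62 subunit promoters (16.1%) and in 3.75% of all 33469 promoter windows. The ETS motif CCGGAAG, the core bound by GABP (also called NRF2), occurred in 18 of 62 (29.0%) against 7.27% of all windows. The YY1 motif AAGATGGC showed no such excess, in 1 of 62 (1.61%) against 1.63% of all windows. The CRE motif TGACGTCA occurred in 3 of 62 (4.84%) against 1.59%. The letters CCAAT were found in 30.6% against 34.0% and TATAAA in 9.68% against 12.9%. GC content had a median of 56.2% in the subunit promoters and 51.2% in all windows. The comparison took every window, without matching to the subunit genes in gene type, expression or GC content. A match of letters is a description of the window and no evidence of binding. Median differences of subunit genes with and without the NRF1 motif were 0.0089 and 0.021, and with and without the ETS motif 0.029 and 0.012.

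The last 120 bases before the start are shown for 6 members. Sdha, Uqcrc1, Atp5po and Ndufa11 carry the NRF1 motif, Atp5pf carries the ETS motif with the YY1 motif AAGATGGC, and Cox8b, a muscle-type isoform, has TATAAA and none of those 3. Capitals mark matches, in Uqcrc1 also CCAAT, and all sequences run 5′ to 3′ in the direction of the gene.
Sdha (chr1:30764433-30764552, plus strand): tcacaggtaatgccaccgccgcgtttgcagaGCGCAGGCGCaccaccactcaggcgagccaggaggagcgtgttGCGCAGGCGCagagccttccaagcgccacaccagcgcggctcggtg
Uqcrc1 (chr8:118468103-118468222, plus strand): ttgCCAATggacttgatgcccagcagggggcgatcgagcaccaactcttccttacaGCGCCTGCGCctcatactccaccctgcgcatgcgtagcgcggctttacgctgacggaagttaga
Atp5po (chr11:44657484-44657603, minus strand): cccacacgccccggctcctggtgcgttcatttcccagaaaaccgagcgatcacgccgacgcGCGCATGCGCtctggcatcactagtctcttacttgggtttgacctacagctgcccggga
Ndufa11 (chr9:1637494-1637613, plus strand): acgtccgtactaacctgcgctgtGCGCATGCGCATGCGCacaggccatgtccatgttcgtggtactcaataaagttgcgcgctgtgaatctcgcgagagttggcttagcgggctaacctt
Atp5pf (chr11:37375102-37375221, minus strand): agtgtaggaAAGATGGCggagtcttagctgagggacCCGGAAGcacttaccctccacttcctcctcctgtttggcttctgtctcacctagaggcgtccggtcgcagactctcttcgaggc
Cox8b (chr1:205408274-205408393, minus strand): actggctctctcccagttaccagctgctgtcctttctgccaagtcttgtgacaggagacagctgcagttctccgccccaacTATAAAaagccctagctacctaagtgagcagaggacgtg

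The arrays resembled each other closely, with a Pearson r of 0.991 to 0.994 between pairs over all probe sets. Liver identity was clear from hepatocyte markers: the albumin gene Alb lay between 13.09 and 13.21 on the 6 arrays and the transthyretin gene Ttr between 12.61 and 12.73. Of 8 hepatocyte markers 7 averaged above 8.26, the 95th percentile of the negative control probe sets, beside 13.2% of all genes. Of 6 skeletal muscle markers 0 did, which at that share of all genes says little about muscle. The Y-linked gene Ddx3y lay between 9.22 and 9.67 on all arrays, and Eif2s3y between 8.38 and 8.67. Uty lay at 8.16 to 8.29 and Kdm5d at 7.59 to 7.75. Usp9y, at 3.37 to 3.48, was below the median of the negative controls (5.51) on every array. The level of a marker list on an array was taken as the average over its genes after subtraction of each gene's own 6-array mean. Levels departed most on STZ-O replicate 3, with Kupffer cell markers at -0.398 and endothelial markers at -0.335. The 8 hepatocyte markers were at -0.004, -0.039 and -0.094 on STZ-O replicates 1 to 3 and at 0.046, 0.032 and 0.057 on the CB-O arrays. Of these 8 markers 3 differed by a value above 0, up to 0.08 for Ttr, and 5 by a value below 0, down to -0.38 for Serpina1, the 1 marker with an unadjusted p under 0.05 in limma (adjusted p = 0.709). The part of these shifts in the values below was not tested, and in whole liver fewer cells of a type and less RNA per cell cannot be told apart.

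No member of the 5 complexes passed the test. In limma 0 of 116 had a Benjamini-Hochberg adjusted p under 0.05 over all 22093 genes, where the background was 0%; the smallest among members was 0.701. At an unadjusted p under 0.05 there was 1 member (0.862%), Cox8b, which was lower in STZ-O, against 5.68% of all genes (3.2% higher and 2.48% lower). Differences spanned -0.30 to 0.17, with 70 members above 0 (60.3%, against 48.1% of all genes) and 46 below. The median over members was 0.012, beside -0.0037 over all genes. Among the 2911 genes brighter than the 95th percentile of negative controls 59.2% lay above 0 with a median of 0.019, and among the 52 members that bright 69.2% did, with a median of 0.024. The 3 arrays of one group lay apart from those of the other for 8 members (6.90%), against 10.1% of all genes. The 3 with higher STZ-O arrays were Ndufb8, Ndufaf2 and Atp5pf, beside 5.2% of all genes. The 5 with lower STZ-O arrays were Ndufaf4, Cox4i1, Cox8b, Cox6b1-ps1 and Atp5mc1l1, beside 4.93% of all genes.

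A difference that misses the threshold does not show equal levels, so the 95% intervals from limma are given with the differences. Over the 70 subunit genes the median half-width of the interval was 0.162, beside 0.170 over all genes. For 61 of the 70 the whole interval lay within 0.3 log2 units of 0, as it did for 16092 of all 22093 genes. The widest intervals were those of Ndufa3 and Ndufa1. For 54 of the 70 the difference between groups was smaller than the SD within groups, as it was for 15607 of all 22093 genes.

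**Figure D1:**
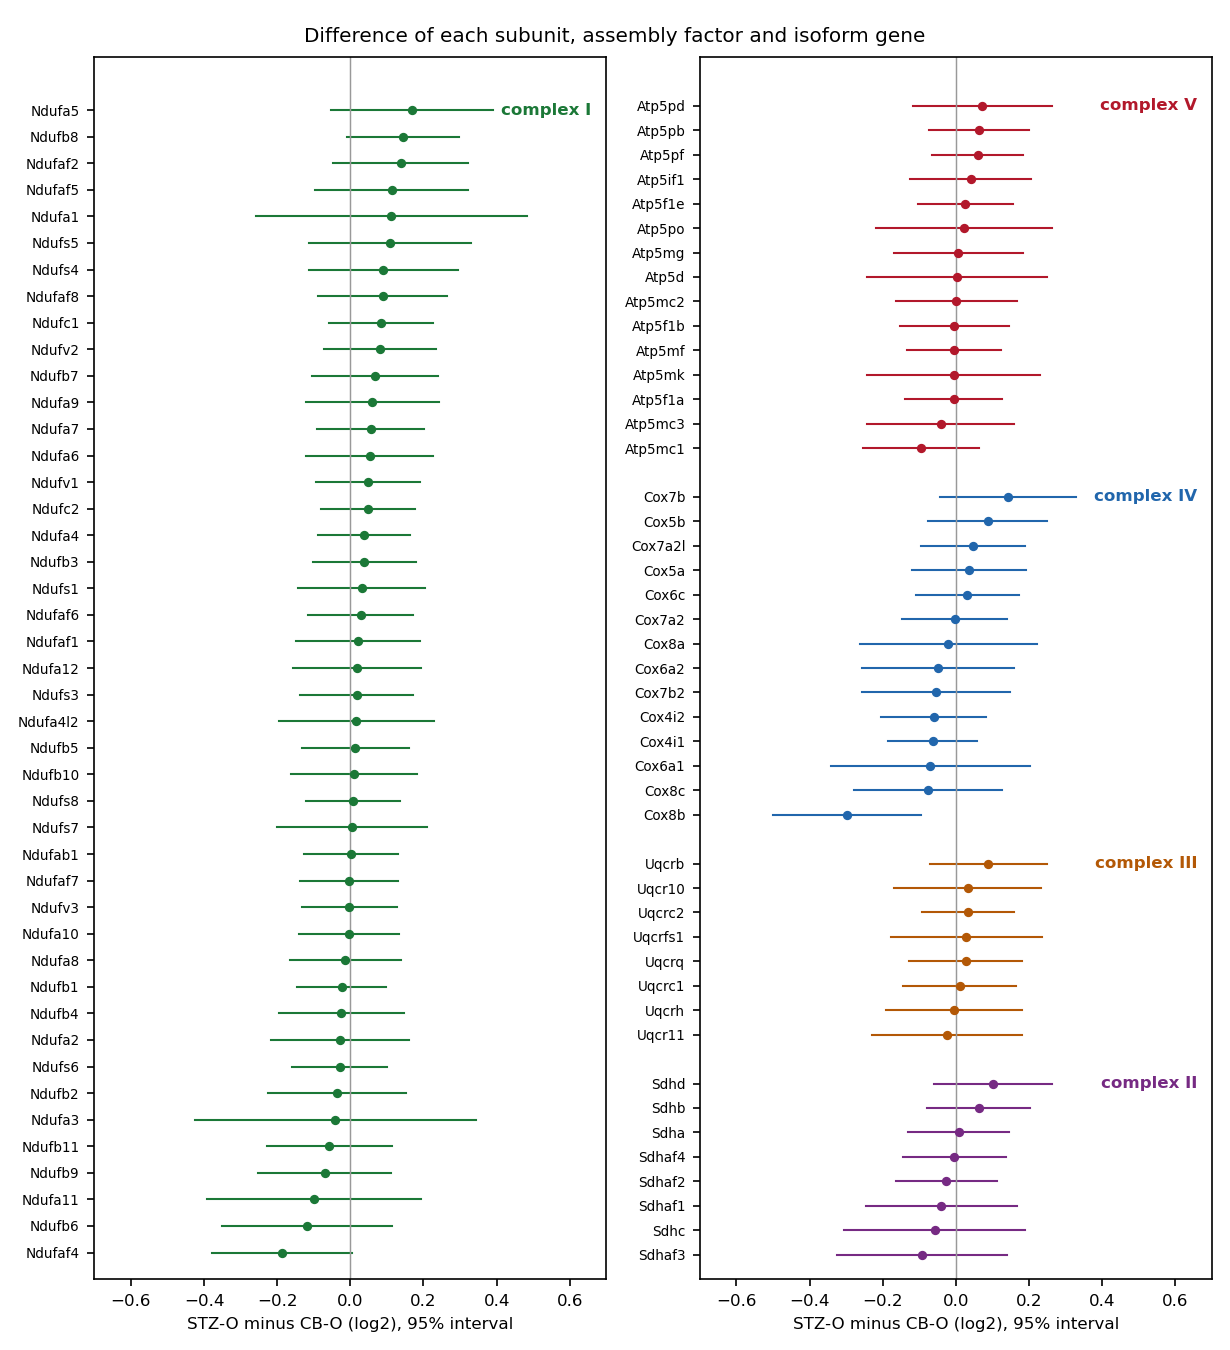
STZ-O minus CB-O difference on the log2 scale (points) with its 95% interval from limma (lines) for the 89 members that are not copies or pseudogenes, sorted by difference within each complex. The intervals of all but Cox8b include 0, and Ndufa3 and Ndufa1 have the widest among subunit genes.

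Summed over subunits, no complex separated the groups. The level of a complex on an array was computed from its subunit genes as for the marker lists. For the 36 subunit genes of complex I it was 0.055, -0.018 and -0.005 on STZ-O replicates 1 to 3 and -0.028, 0.027 and -0.030 on the CB-O arrays. STZ-O replicate 1 was the highest array and the other STZ-O arrays lay among the CB-O arrays. Complex II (4 genes) was at 0.091, 0.021 and -0.069 in STZ-O and at -0.041, 0.038 and -0.039 in CB-O, so that its highest and lowest arrays were both STZ-O. Complex III (8 genes) was at 0.033, 0.007 and -0.005 against -0.065, 0.036 and -0.006, with CB-O replicate 1 apart at the low end. For complex IV (8 genes) the levels were 0.068, 0.014 and -0.056 against -0.014, 0.002 and -0.013, and for complex V (14 genes) 0.055, -0.013 and -0.033 against -0.044, 0.033 and 0.001. In both, STZ-O replicate 1 was the highest array. Over the subunit genes the group difference in level was 0.021 for complex I, 0.028 for complex II, 0.023 for complex III, 0.017 for complex IV and 0.007 for complex V, each smaller than its SD within groups, which ran from 0.036 to 0.065. With assembly factors, isoforms and copies included, the signs were mixed. The median difference over all members was then 0.018 for complex I (34 above 0, 20 below), -0.016 for complex II (3 above, 5 below) and 0.027 for complex III (9 above, 3 below). It was -0.012 for complex IV (8 above, 10 below) and 0.0073 for complex V (16 above, 8 below).

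**Figure D2:**
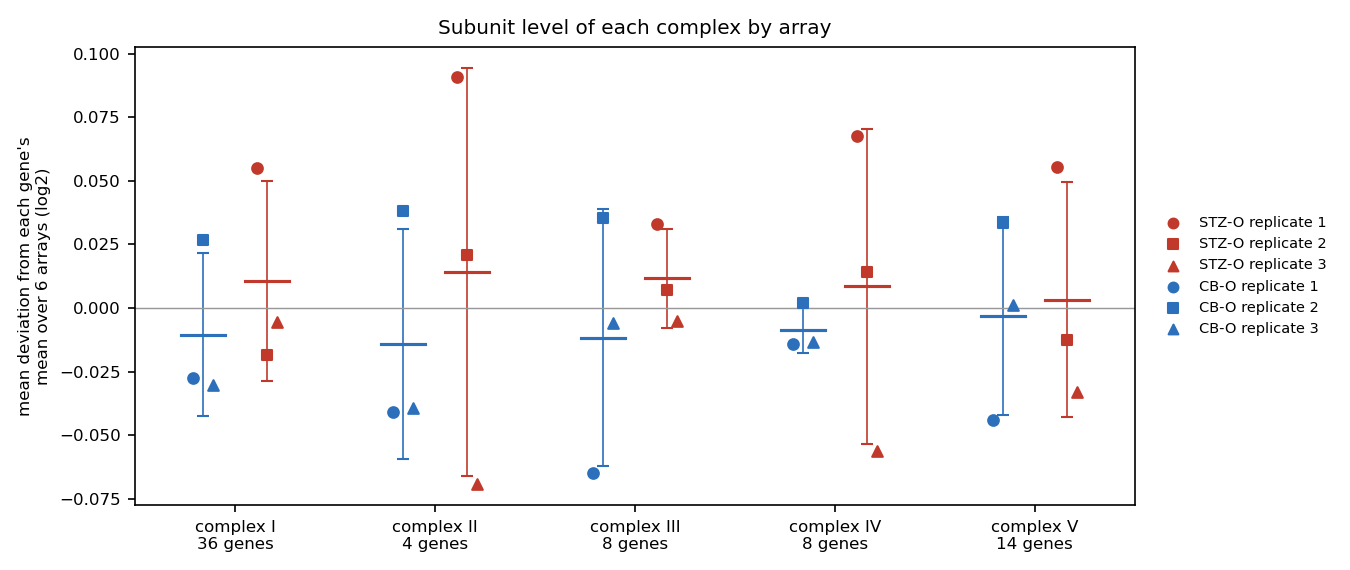
Level of the subunit genes of each complex on each array, in log2 units, averaged over genes after each gene's own mean was subtracted; points are arrays, thick bars group means and thin bars SDs of 3 arrays. The groups overlap in all 5 complexes, and STZ-O replicate 1 is the highest array in complexes I, II, IV and V.

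In complex I the 6 core subunit genes measured, Ndufs1, Ndufs3, Ndufs7, Ndufs8, Ndufv1 and Ndufv2, carry the flavin or iron-sulphur clusters or help to shape the electron path. All 6 differences were positive but small, from 0.0039 for Ndufs7 to 0.082 for Ndufv2, and 0 passed. Ndufs1, the large iron-sulphur subunit, stood at 9.15, 9.12 and 9.10 in STZ-O and at 8.95, 9.20 and 9.13 in CB-O, a difference of 0.03 (95% interval -0.14 to 0.20). Ndufv1, which binds NADH and flavin, was at 8.95, 8.80 and 8.82 against 8.81, 8.82 and 8.80. Its CB-O arrays were nearly equal, and 1 STZ-O array exceeded them by more than 0.1 while the other 2 lay level with them (difference 0.05, interval -0.09 to 0.19).

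The 30 accessory genes of complex I, which surround the core and stabilise it, split into 17 above 0 and 13 below with a median of 0.012. The largest difference among them was that of Ndufa5, at 7.98, 7.94 and 8.25 in STZ-O and 7.78, 7.95 and 7.95 in CB-O. It rested on a high STZ-O replicate 3 and a low CB-O replicate 1 (difference 0.17, interval -0.05 to 0.39; adjusted p = 0.936). Ndufb8, a subunit of the membrane arm, was at 6.84, 6.88 and 6.94 against 6.66, 6.83 and 6.74. Its groups did not overlap, though STZ-O replicate 1 lay barely above CB-O replicate 2, and the difference was 0.14 (interval -0.01 to 0.30; adjusted p = 0.896). Ndufa4, named for complex I but now assigned to complex IV, was at 8.99, 8.99 and 8.92 against 8.96, 8.94 and 8.90, a difference of 0.04 with overlapping groups.

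Of 7 complex I assembly factors 5 lay above 0 and 2 below, with a median of 0.028. These proteins build the complex and are absent from the finished enzyme. Ndufaf4 had the smallest p of all complex I members: it was at 6.81, 6.75 and 6.72 in STZ-O and at 6.82, 7.11 and 6.90 in CB-O. All STZ-O arrays lay below the CB-O arrays, but STZ-O replicate 1 and CB-O replicate 1 were 0.01 apart to rounding, and the difference of -0.19 (interval -0.38 to 0.01) did not pass (adjusted p = 0.887). Ndufaf2, a chaperone of late assembly, was at 6.25, 6.22 and 6.49 against 6.16, 6.21 and 6.16. It went the other way, at 0.14 (interval -0.05 to 0.32), and again the groups lay apart by a narrow gap.

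In complex II the flavoprotein gene Sdha was at 9.48, 9.44 and 9.39 in STZ-O and 9.36, 9.45 and 9.47 in CB-O. The groups coincided, with a difference of 0.0072 (interval -0.13 to 0.15). The iron-sulphur subunit gene Sdhb was at 8.56, 8.49 and 8.58 against 8.42, 8.55 and 8.48, a difference of 0.06 (interval -0.08 to 0.20). Sdhd, which anchors the enzyme in the membrane, was at 8.81, 8.79 and 8.66 against 8.61, 8.74 and 8.60; CB-O replicate 2 lay above STZ-O replicate 3, and the difference was 0.10 (interval -0.06 to 0.26; adjusted p = 0.958). All 4 assembly factor genes of this complex lay below 0 on their brightest probe sets, from -0.0043 for Sdhaf4 to -0.09 for Sdhaf3, with overlapping groups. Sdhaf1 was at -0.04 on that probe set and at 0.06 on 2 dimmer ones, which hold identical values. Sdhaf3 was at 7.60, 7.59 and 7.78 against 7.62, 7.95 and 7.68, and its difference turned on the high CB-O replicate 2.

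In complex III the core protein genes Uqcrc1 and Uqcrc2 and the Rieske iron-sulphur protein gene Uqcrfs1 differed by 0.011 to 0.032. Uqcrc1 was at 8.45, 8.42 and 8.28 in STZ-O and 8.32, 8.42 and 8.38 in CB-O (difference 0.01, interval -0.14 to 0.16). Uqcrfs1, whose protein delivers electrons to cytochrome c1, was at 7.58, 7.70 and 7.60 against 7.44, 7.77 and 7.59. The CB-O arrays held both its highest and its lowest value (difference 0.03, interval -0.18 to 0.23). Uqcrb, which encodes the small ubiquinone-binding protein, had the smallest p of the complex, at 8.44, 8.53 and 8.50 against 8.28, 8.48 and 8.43. Its difference was 0.09 (interval -0.07 to 0.25; adjusted p = 0.961). The pseudogene Uqcrb-ps1 was at 10.30, 10.47 and 10.45 against 10.12, 10.38 and 10.45, and Uqcrb-ps2 at 8.95, 8.97 and 8.96 against 8.74, 8.87 and 9.03. Their differences were 0.09 and 0.08 with overlapping groups, and since they may share hybridisation with Uqcrb they are no separate evidence. On all 3 probe sets CB-O replicate 1 was the lowest array.

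In complex IV the 8 genes of ubiquitously expressed nuclear subunits parted into 4 above and 4 below 0. Cox4i1, the largest nuclear subunit and a regulatory one, was at 8.97, 9.03 and 8.98 in STZ-O and 9.05, 9.04 and 9.08 in CB-O. The STZ-O arrays all lay lower, but by little: the difference was -0.06 (interval -0.19 to 0.06; adjusted p = 0.973). Cox5a, a matrix-side subunit, was at 8.32, 8.32 and 8.28 against 8.17, 8.26 and 8.38, with the widest scatter in CB-O (difference 0.04, interval -0.12 to 0.19). Cox7b, which is needed to assemble the complex, had the largest positive difference of these 8. It was at 9.17, 9.20 and 9.36 against 9.02, 9.22 and 9.06, and CB-O replicate 2 exceeded 2 of the STZ-O arrays (difference 0.14, interval -0.04 to 0.33; adjusted p = 0.936). Cox7a2 was at 9.63, 9.57 and 9.48 against 9.52, 9.60 and 9.56, a difference of -0.0039 (interval -0.15 to 0.14). Cox7a2l, whose protein links complexes III and IV in supercomplexes, was at 8.62, 8.52 and 8.66 against 8.53, 8.60 and 8.52, with a difference of 0.05 and overlapping groups. The copy Cox6b1-ps1, at 7.53, 7.52 and 7.47 against 7.68, 7.62 and 7.56, differed by -0.11 (interval -0.25 to 0.02).

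Complex IV has tissue-restricted isoforms of heart and skeletal muscle type (Cox6a2, Cox8b), testis type (Cox7b2, Cox8c) or lung type (Cox4i2) beside the ubiquitous or liver-type forms. Among the restricted forms Cox7b2, Cox8b and Cox8c averaged below the median of the negative controls (5.51). Cox4i2, Cox6a2 and the complex I relative Ndufa4l2 averaged between that median and the 95th percentile of 8.26, as did the ubiquitous form Cox8a. Cox8b was at 4.76, 5.09 and 4.99 in STZ-O and 5.28, 5.23 and 5.22 in CB-O. All STZ-O arrays lay lower, with a difference of -0.30 ± 0.09 (SE; interval -0.50 to -0.10; limma unadjusted p = 0.00958, adjusted p = 0.701), yet all 6 values lay below 5.51, so that no level above background can be claimed for either group. Cox8c was at 5.06, 5.31 and 5.09 against 5.23, 5.13 and 5.33, with overlapping groups.

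Cox6a2 stood at 6.47, 6.70 and 6.56 in STZ-O and 6.69, 6.48 and 6.72 in CB-O. Cox4i2 stood at 6.09, 6.22 and 6.15 against 6.24, 6.15 and 6.26. Both differences, -0.05 and -0.06, were within the scatter of the arrays. Ndufa4l2, a hypoxia-induced relative of Ndufa4, was at 5.87, 6.08 and 5.95 against 6.02, 5.78 and 6.06 (difference 0.02, interval -0.20 to 0.23). Of the ubiquitous or liver-type forms, Cox6a1 was at 10.41, 10.39 and 10.10 against 10.58, 10.33 and 10.20, so that each group ranged over at least 0.3 (difference -0.07, interval -0.34 to 0.20). Cox8a was at 7.27, 7.18 and 6.86 against 7.18, 7.08 and 7.12, with STZ-O replicate 3 the lowest array (difference -0.02, interval -0.26 to 0.22). Levels of different genes are not compared with each other, since probe sets differ in their response.

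**Figure D3:**
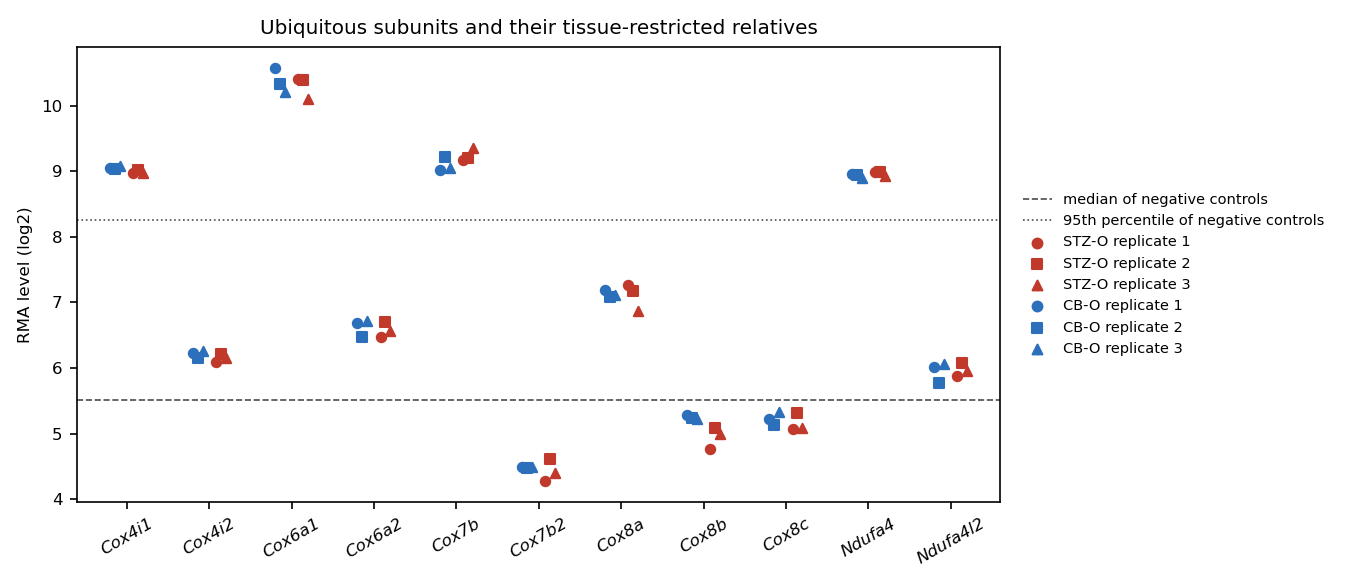
RMA level (log2) on each array for ubiquitous or liver-type subunit genes and their tissue-restricted relatives; the dashed line is the median of the negative controls (5.51) and the dotted line their 95th percentile (8.26). Cox7b2, Cox8b and Cox8c lie below the dashed line on all arrays, and the groups overlap for every gene shown except Cox4i1 and Cox8b.

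In complex V the catalytic head genes Atp5f1a and Atp5f1b, which encode the alpha and beta subunits, gave nearly equal group means. Atp5f1a was at 10.54, 10.59 and 10.50 in STZ-O and 10.49, 10.59 and 10.56 in CB-O, a difference of -0.0066 (interval -0.14 to 0.13). Atp5f1b was at 10.83, 10.74 and 10.66 against 10.72, 10.74 and 10.79, a difference of -0.0040 (interval -0.15 to 0.14). Over the 4 genes grouped here with the head (Atp5f1a, Atp5f1b, Atp5d and Atp5f1e) the differences ran from -0.0066 to 0.025. That was the narrowest range of any role with at least 4 genes. The peripheral stalk, which holds the head still against the rotor, had all 4 genes above 0, between 0.022 for Atp5po and 0.072 for Atp5pd. Its member Atp5pf was at 9.45, 9.48 and 9.40 against 9.39, 9.38 and 9.39; the groups lay apart by 0.01 to rounding, with a difference of 0.06 (interval -0.06 to 0.18). The c ring, the rotor through which protons pass, had 1 gene above 0 and 2 below. Atp5mc1 was at 8.26, 8.10 and 8.08 against 8.28, 8.26 and 8.19, and its relative Atp5mc1l1 at 8.66, 8.56 and 8.59 against 8.78, 8.71 and 8.67. They differed by -0.10 and -0.11 (intervals -0.25 to 0.06 and -0.25 to 0.03), Atp5mc1 with overlapping groups. The related Atp5mc2 differed by 0.0011. Atp5hl1, annotated as a pseudogene in RefSeq, was at 6.22, 6.28 and 6.30 against 6.26, 6.14 and 6.18. Its difference was 0.07 with overlapping groups. The inhibitor gene Atp5if1, whose protein blocks reverse rotation and ATP loss, differed by 0.04 (interval -0.12 to 0.20).

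Less of the scatter of the subunit genes lay between the groups than over all genes. Of the summed squared deviations of the 70 genes over the 6 arrays, 11.01% lay between the groups, compared with 22.4% over all genes. A leading axis through the 70 genes, computed after the values were seen, held 52.9% of that variance, with CB-O replicate 1 at 0.84 and STZ-O replicate 3 at -0.93. The other 4 arrays lay between them, at 0.41 and 0.04 for STZ-O replicates 1 and 2 and at -0.15 and -0.20 for CB-O replicates 2 and 3. At its ends stood 2 sets of genes that moved in opposite senses. Ndufa3, Ndufa11 and Cox6a1 loaded most at the end of CB-O replicate 1, and Ndufa1, Ndufa5 and Ndufs5 at that of STZ-O replicate 3.

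Ndufa3, an accessory subunit gene, was at 7.83, 7.38 and 7.38 in STZ-O and at 7.88, 7.50 and 7.33 in CB-O, a range of 0.551. Replicate 1 was the highest array in each group, and the group difference was -0.04. Ndufa11, which encodes a membrane-arm subunit, was at 9.45, 9.23 and 9.05 against 9.55, 9.33 and 9.16, a range of 0.496 with a difference of -0.10. Ndufa1 ran otherwise: it was at 8.24, 7.97 and 8.59 in STZ-O and 7.98, 8.35 and 8.12 in CB-O, with STZ-O replicate 3 the highest array. Its range of 0.619 was the widest of the 70, and its dimmer probe set was also highest on STZ-O replicate 3, at 7.57. At the other extreme, the 6 values of Ndufb1 lay within 0.070 of each other. On STZ-O replicate 3 the Kupffer and endothelial marker lists were also at their lowest, as given above, and red cell markers were highest on CB-O replicate 1 at 0.278; the part of cell makeup in this axis was not tested.

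**Figure D4:**
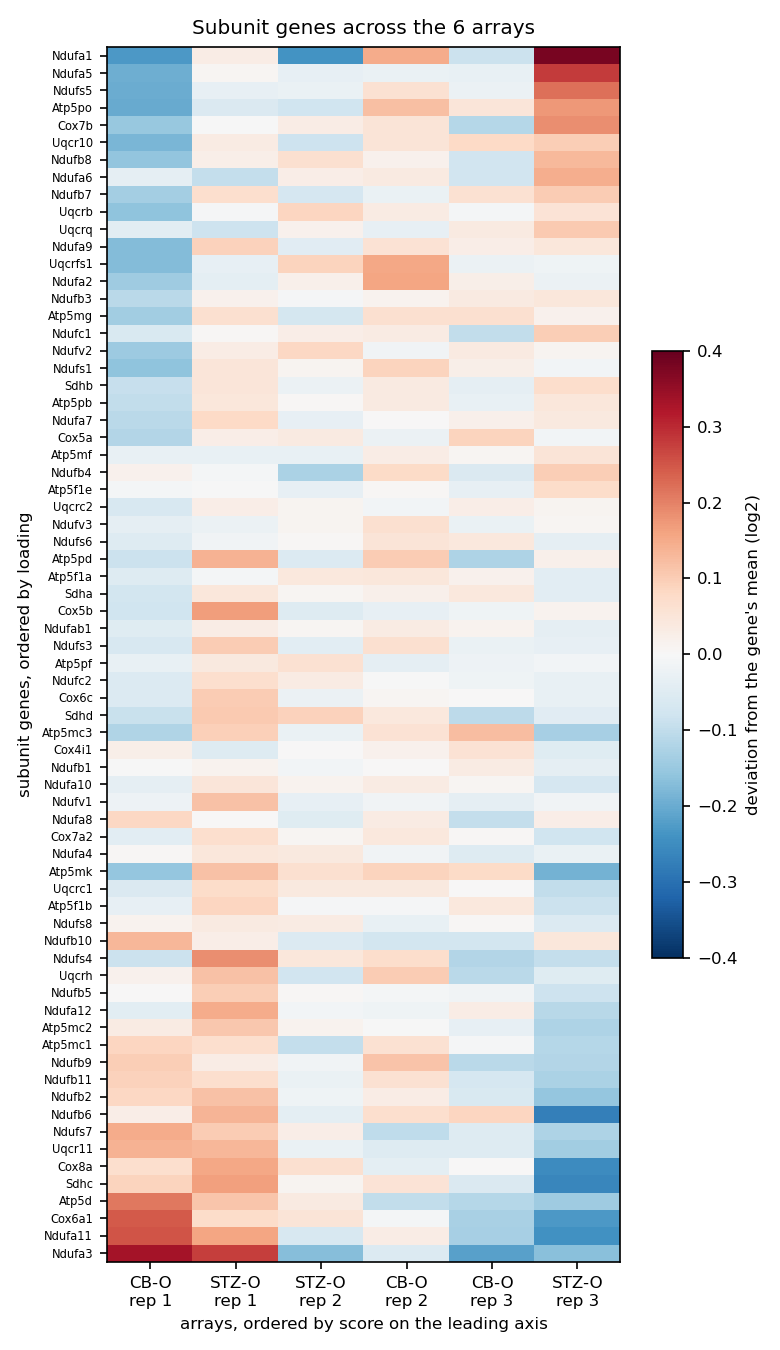
Level of each of the 70 subunit genes relative to its own average (colour, log2 units), with genes ordered by their loading on the leading axis and arrays by their score on it. CB-O replicate 1 and STZ-O replicate 3 stand at opposite ends, and 2 arrays of each group lie between them.

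Other genes of mitochondrial respiration showed the same lack of calls. Of 17 genes of electron carriers and ubiquinone synthesis 13 lay above 0, with a median of 0.034 (76.5% above 0, beside 48.1% of all genes). At an unadjusted p under 0.05 there was 1 (5.88%, beside 5.68% of all genes), and 0 passed. It was Coq8a, a kinase-like gene of ubiquinone synthesis, at 9.21, 9.27 and 9.38 in STZ-O and 9.17, 9.03 and 8.86 in CB-O (difference 0.27 ± 0.09, SE; adjusted p = 0.800). Its STZ-O arrays all exceeded its CB-O arrays. Etfdh, which feeds electrons from fatty acid oxidation into ubiquinone, differed by 0.12 ± 0.07.

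Of 35 further assembly factor genes 15 lay above and 20 below 0, with a median of -0.014 and 1 (2.86%) at an unadjusted p under 0.05. This was Acad9, a complex I assembly factor related to acyl-CoA dehydrogenases, at 7.86, 7.74 and 7.92 against 7.58, 7.70 and 7.65 (difference 0.20 ± 0.07, SE; adjusted p = 0.800). Among 19 regulators of mitochondrial biogenesis 8 lay above and 11 below 0, with a median of -0.059 and 1 (5.26%) at an unadjusted p under 0.05. The coactivator gene Pprc1 was at 6.54, 6.51 and 6.43 against 6.68, 6.65 and 6.60, all STZ-O arrays lower (difference -0.15 ± 0.06, SE; adjusted p = 0.843). The citric acid cycle list had 9 of 15 genes above 0 and 6 below (median 0.018), with 0 at an unadjusted p under 0.05. Of 9 carriers and uncoupling proteins 2 lay above 0 and 7 below (median -0.055, 0 at an unadjusted p under 0.05). The 80 genes of the mitochondrial ribosome parted into 43 above and 37 below (median 0.006), with 6 (7.50%, beside 5.68% of all genes) at an unadjusted p under 0.05 and 0 past the adjusted threshold.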

How the data were processed

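Total RNA from 6 livers (3 STZ-O, 3 CB-O) was measured on Affymetrix rat transcriptome arrays. The authors deposited log2 values, 1 per probe set and array; per the submitters' processing notes they used Affymetrix Expression Console 1.4.1 and RMA (robust multi-array averaging), a method that in general compresses changes of dim probe sets. Its settings and the build it used were not given in the sources used here. After removal of 1738 controls, 68842 probe sets remained: 23446 with 1 gene symbol in the platform annotation, 505 with several and 44891 with none. Each of 22093 genes was represented by its brightest single-symbol probe set. Genes without such a probe set, such as Cox6b1 and Cox7c, were not analysed here.

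STZ-O and CB-O were compared with limma 3.58.1 in R 4.3.3 (lmFit and eBayes, two-sided, no covariate), fitted and Benjamini-Hochberg adjusted over all genes with a threshold of 0.05. The fit was tested on simulated data with 50 changes each of 0.5, 1, 2 and 4 log2 units planted together. It recovered 33 of 50 changes of 0.5 units and 50 of 50 of 4 units, with 5 false calls. Large changes planted alongside ease the adjusted threshold for small ones. In the measured data 0 of 22093 genes passed, so these recovery rates need not hold there. Changes under 0.5 units, such as all member differences reported here, were not simulated. The number of arrays limits the precision, and p-values measure the spread between these animals. Members and lists were chosen with earlier results of these data known. Values on every array are given for the 3 members of each complex with the smallest p, for 10 listed core members (Ndufs1, Ndufv1, Sdha, Sdhb, Uqcrc1, Uqcrfs1, Cox4i1, Cox5a, Atp5f1a and Atp5f1b) and for listed members with tissue-restricted relatives; other members shown with values, and the leading axis, were chosen after their values were seen. Alternatives were the replicate number as a block, the mean of a gene's probe sets, a filter on dim genes, centred arrays, another variance model, array weights, a Y-linked covariate, adjustment over probe sets, each array left out, other member sets, and means for medians.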

Additional observations from a re-analysis of the deposited data

How the results depend on the processing

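The count of members past the adjusted threshold was 0 in all 13 other limma fits and with adjustment over all probe sets. Over all genes 2 passed with an intensity trend and robust variances, and between 0 and 1 with 1 array left out (1 without STZ-O replicate 2). The number of members with non-overlapping groups was 3 with dim genes left out (52 members remained), beside 328 of all 2911 genes that bright. The number was 5 with centred arrays and 14 to 20 with 1 array left out, where fewer arrays make separation easier by construction. The share of all genes was not computed for centred arrays or with 1 array left out, so these counts have no comparison. With 1 array left out the median ran from -0.0062 to 0.032 over members, from -0.043 to 0.028 in complex IV and from -0.019 to 0.036 in complex V. Members above 0 were 57 of 116 without STZ-O replicate 1 and 60 without CB-O replicate 1, so the excess of positive differences rested on these arrays. The median of complex IV, -0.012 over its 18 members, was also positive at 0.022 with dim genes left out, which keeps 8 of them, and at 0.0097 with array weights. The dim genes left out include its 5 tissue-restricted isoforms, all below 0 (median -0.061). Also left out are Cox8a and Cox6b1-ps1, below 0, and Cox5b, Cox6c-ps1 and Cox7cl1, above 0. The cause of the sign changes was not tested. The median of complex II, -0.016 over its 8 members, was 0.035 with assembly factors or dim genes left out, 0.0015 with the mean of all probe sets per gene and -0.038 to 0.021 with 1 array left out. Of 33 members followed, 14 changed sign in some setting, and 0 moved by more than the SD within groups. Same-numbered arrays deviated together with r = 0.146, -0.175 and 0.1001, and arrays of different numbers with r from -0.225 to 0.130. With 3 arrays per group these values cannot decide whether the replicate numbers pair the arrays. With the number as a block 0 members passed and the median difference was 0.012. Of 116 members, 64 had a mean under 8.26, the level that 95% of negative controls do not exceed. At or above that level were 44.8% of members, beside 13.2% of all genes.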
